A study of Homo sapiens with 6 samples.

Results

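The 10 genes described here form the core of the NRF2 antioxidant response. They were listed by their known roles, and the rule that lists them uses none of the measured values, although earlier results of these data were known when it was written. They are the transcription factor NRF2 (gene NFE2L2), its inhibitor KEAP1, and the targets NQO1, HMOX1, GCLC, GCLM, SLC7A11, TXNRD1, FTH1 and FTL. All 10 were among the 26445 gene-level probe sets on the arrays. None of them (0 of 10) met the selection that the study applied to its arrays, for which the p before adjustment had to be below 0.025 and the level had to rise or fall 1.2-fold or more. Of all probe sets 5.83% met it in limma, so that a count of 0 among 10 genes lies near the background. The largest differences were a 1.17-fold higher level of KEAP1 and a 1.15-fold lower level of FTH1 with doxycycline.

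NRF2 is held in the cytoplasm by KEAP1, which hands it to a ubiquitin ligase so that it is degraded. Oxidants and electrophiles modify cysteines of KEAP1, and NRF2 then escapes degradation, enters the nucleus and binds antioxidant response elements together with a small MAF protein. Because this switch acts on the protein, the NFE2L2 transcript is a poor measure of NRF2 activity, which is usually read from the transcripts of its targets. In colorectal cells the targets supply glutathione, reduced thioredoxin, quinone detoxification and iron storage.

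The 2 groups compared were of SW480 cells, a human colorectal cancer cell line. The cells were Clone 13, a single clone that carries the tetracycline repressor and a KIAA1199 construct under its control. Such cells were selected with blasticidin S and G418 and grown in Tet-approved serum. The induced cells were exposed to doxycycline at 50 ng/ml for 48 h according to the labels (the study's methods give a range of doses for its clones), and the uninduced cells served as controls. Each group had 3 arrays, 1 from each of 3 independent experiments. No cells without the construct were given doxycycline among these arrays, so an effect of KIAA1199 and an effect of doxycycline itself cannot be told apart. The study's methods cite earlier work in which doses of this range did not alter transcript levels on microarrays, and these arrays cannot check that. The labels repeat the doxycycline protocol on every sample, and the groups were therefore taken from the sample titles.

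The deposited values were log2 expression levels from GeneChip Human Exon 1.0 ST arrays, 1 value per gene and array, already brought to a common distribution with a median of 5.66 on each array. Any pair of arrays correlated over all probe sets with an r between 0.984 and 0.989. Levels of different genes come from different probes and were not set against each other. With 3 arrays in each group, the number of arrays sets how precise any value can be. The identifiers of other probe sets could not be paired with gene symbols here, so no probe set was assigned to the induced gene, to markers of colorectal cells or to further NRF2 targets. For scale, the largest rise of any probe set was at ENSG00000103888_at, by 1.84, 1.60 and 2.05 on the log2 scale in experiments 1, 2 and 3, and its symbol was not looked up here.

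The antioxidant response element has the core TGACNNNGC, where N is any base. Promoter windows from RefSeq (GRCh38.p14), each with 250 bases before and 50 after a transcription start, were at hand for 7 of the 10 genes, in 10 windows. They did not include HMOX1, SLC7A11 or FTH1. The core was searched on both strands. It was found in 4 of the 10 windows, which belong to KEAP1, GCLM and TXNRD1, and in 13.3% of all 35116 windows of the same length. The matching stretches are given here because they are the letters that NRF2 is known to read, from 130 bases before to 10 bases after the start, 5′ to 3′ on the strand of the gene, with the matches in capitals. KEAP1 and TXNRD1 each have 2 start sites in the table, counted here from upstream.
KEAP1, start site 2, chr19:10502762-10502901, minus strand: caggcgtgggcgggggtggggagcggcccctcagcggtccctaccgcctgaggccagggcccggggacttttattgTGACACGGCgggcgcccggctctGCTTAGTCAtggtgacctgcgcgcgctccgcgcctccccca
GCLM, chr1:93909421-93909560, minus strand: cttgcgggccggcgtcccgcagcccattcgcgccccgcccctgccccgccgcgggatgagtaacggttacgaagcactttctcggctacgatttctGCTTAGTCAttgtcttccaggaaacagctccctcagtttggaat
TXNRD1, start site 1, chr12:104215649-104215788, plus strand: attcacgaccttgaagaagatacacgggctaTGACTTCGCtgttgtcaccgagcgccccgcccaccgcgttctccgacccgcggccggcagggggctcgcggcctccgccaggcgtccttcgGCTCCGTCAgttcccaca
TXNRD1, start site 2, chr12:104286902-104287041, plus strand: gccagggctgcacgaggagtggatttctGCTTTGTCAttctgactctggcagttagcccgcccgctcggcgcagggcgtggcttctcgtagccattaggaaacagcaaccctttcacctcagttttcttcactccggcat
The windows of KEAP1 and GCLM held the same 9 letters, TGACTAAGC on the opposite strand, beginning 31 and 34 bases before the start. None of the matches overlapped the related AP-1 core TGANTCA, which was in 0 of the 10 windows and in 7.71% of all windows. A match of letters is a description and not a bound site. Sequence outside the windows was not searched, so a window without a match does not mean that the gene lacks the element. The log2 differences of the 3 genes with a match, 0.22 for KEAP1, 0.04 for GCLM and -0.10 for TXNRD1, differed in sign.

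KEAP1 (ENSG00000079999_at), the inhibitor, had the largest difference of the 10. Its log2 level was 7.83, 7.72 and 7.86 in the uninduced cells of experiments 1, 2 and 3, and 7.96, 8.09 and 8.02 with doxycycline. All 3 doxycycline arrays lay above all 3 uninduced arrays. The mean went from 7.80 ± 0.07 (SD, n = 3) to 8.02 ± 0.07 (SD, n = 3), a log2 difference of 0.22 (standard error 0.08, 95% interval 0.00053 to 0.44). Limma, with the experiment as a block, gave an unadjusted p of 0.0497 and a Benjamini-Hochberg adjusted p of 0.41 over all probe sets. These are levels in whole cultures, in which a change in all cells and a change in some of them cannot be told apart. The fold change of 1.17 was under the study's minimum, and a difference at least as large in either direction was found at 20.4% of all probe sets. The unadjusted p from limma was on the other side of the study's limit without the block, at 0.0214. It was also there with a variance prior that depended on the level, at 0.0240. Without the dimmest 25% of probe sets it was 0.0389. Other alternatives moved it above 0.05, to 0.0509 with a robust variance prior and to 0.0520 with the level trend removed. The study's paired test gave an unadjusted p of 0.0976 for KEAP1.

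NFE2L2 (ENSG00000116044_at), which encodes NRF2 itself, had a log2 level of 8.65, 8.51 and 8.60 without doxycycline and of 8.71, 8.61 and 8.56 with it, in experiments 1, 2 and 3. The groups overlapped, and the sign of the difference was not the same in all experiments. The log2 difference was 0.04 (95% interval -0.14 to 0.23, limma adjusted p = 0.83). It was 0.08 without experiment 3, 0.015 without experiment 2 and, with no block, 0.0013 without the doxycycline array of experiment 1. The upper bound corresponds to a 1.17-fold rise, so that a change of the NFE2L2 transcript by the study's minimum of 1.2-fold lay outside this interval. The NRF2 protein was not measured.

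**Figure D1:**
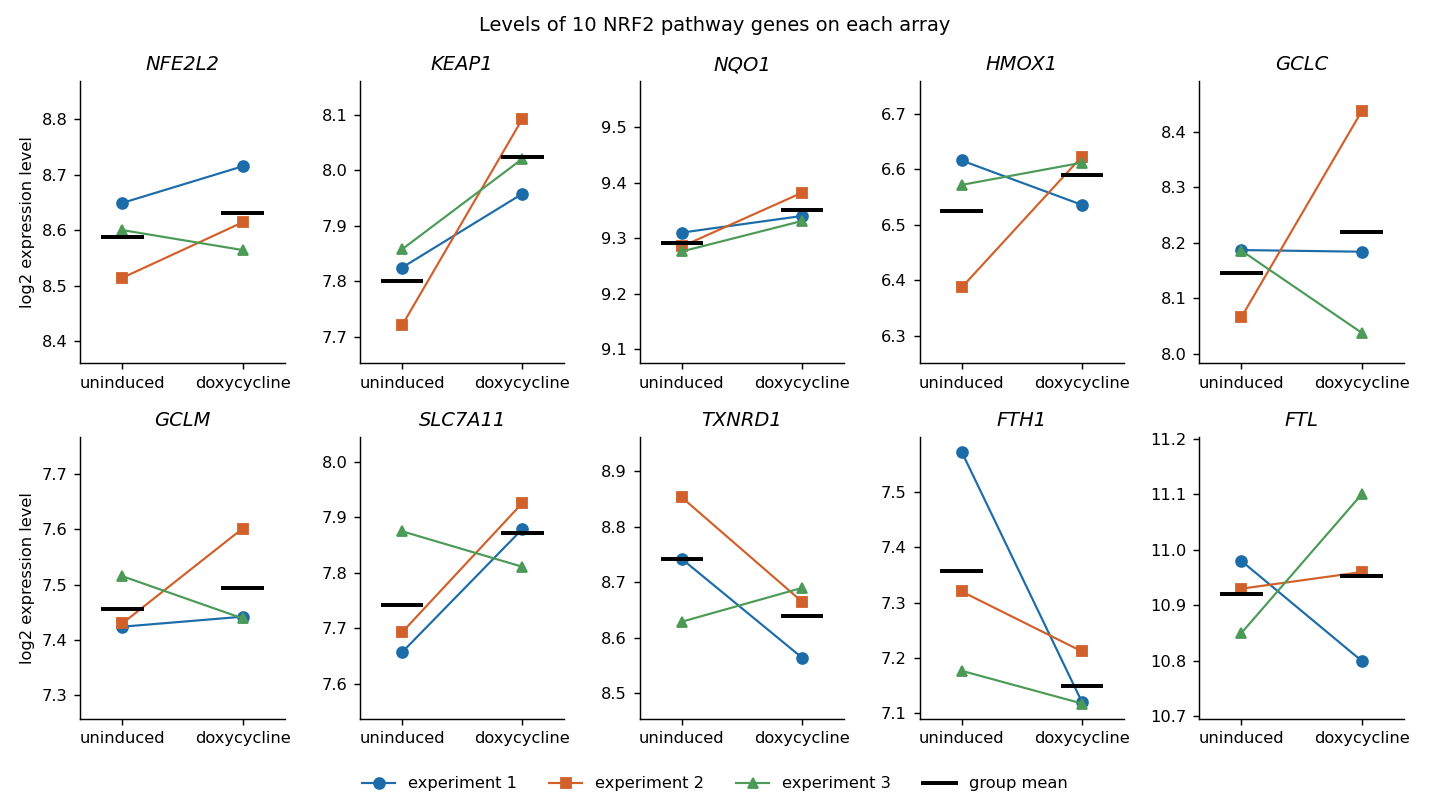
Log2 expression levels (y axis) of the 10 genes in uninduced and doxycycline-treated cells (x axis), with 1 point per array, lines joining the arrays of 1 experiment and black bars for the group means. Every panel spans the same range of log2 units around its own values. The groups are separate for KEAP1 and NQO1 and overlap for the other 8 genes.

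NQO1 (ENSG00000181019_at), a quinone reductase and a widely used readout of NRF2 activity, had a small difference and the most even one of the 10. Its log2 level was 9.31, 9.29 and 9.28 without doxycycline and 9.34, 9.38 and 9.33 with it. The groups did not overlap, but by a small margin. The 3 differences of 0.03, 0.10 and 0.06 gave a mean of 0.06 (95% interval -0.11 to 0.23, limma adjusted p = 0.73), or 1.04-fold. Their SD of 0.034 was smaller than that of most probe sets, with only 5.1% below it. The 95% interval of limma, which borrows the spread of all probe sets, included 0. Groups that did not overlap were found for 2 of the 10 genes, KEAP1 and NQO1, both higher with doxycycline, and at 16.6% of all probe sets, or 8.64% for the higher direction alone.

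HMOX1 (ENSG00000100292_at) encodes heme oxygenase 1, which breaks down heme to biliverdin, iron and carbon monoxide, and is among the most inducible genes of the response. Its log2 level was 6.62, 6.39 and 6.57 in uninduced cells and 6.54, 6.62 and 6.61 with doxycycline. The doxycycline values lay within or just above the uninduced range. The mean difference was 0.07 (95% interval -0.18 to 0.31, limma adjusted p = 0.81), and it was -0.02 without experiment 2, whose uninduced array had the lowest level. An induction of HMOX1 above 1.24-fold lay outside the interval.

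GCLC (ENSG00000001084_at) and GCLM (ENSG00000023909_at) encode the catalytic and the modifier subunit of glutamate-cysteine ligase, the rate-limiting enzyme of glutathione synthesis. For GCLC, the log2 levels were 8.19, 8.07 and 8.19 without doxycycline and 8.18, 8.44 and 8.04 with it. The doxycycline arrays thus held both the highest and the lowest value of the gene. The GCLC difference was 0.37 in experiment 2, and -0.003 and -0.15 in experiments 1 and 3. Over all experiments it was 0.07 (95% interval -0.27 to 0.42, limma adjusted p = 0.85), the widest interval of the 10 genes, and it was -0.08 without experiment 2.

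For GCLM, the log2 levels were 7.42, 7.43 and 7.52 without doxycycline and 7.44, 7.60 and 7.44 with it. The groups overlapped, and again the array with doxycycline of experiment 2 was the highest. The GCLM difference was 0.04 (95% interval -0.18 to 0.26, limma adjusted p = 0.88), and -0.03 without experiment 2. GCLC and GCLM had the same order of differences over the experiments, highest in 2, then 1, then 3.

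SLC7A11 (ENSG00000151012_at) encodes the cystine importer of system xc-, which brings in the cysteine that glutathione synthesis needs. Its log2 level was 7.66, 7.69 and 7.88 without doxycycline and 7.88, 7.93 and 7.81 with it. It was higher by 0.22 and 0.23 in experiments 1 and 2 and lower in experiment 3, where the uninduced value was already 7.88. The mean difference was 0.13 (95% interval -0.12 to 0.38, limma adjusted p = 0.62), 0.23 without experiment 3, 0.08 without experiment 1 and 0.08 without experiment 2.

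TXNRD1 (ENSG00000198431_at), the cytosolic thioredoxin reductase, had a log2 level of 8.74, 8.85 and 8.63 without doxycycline and of 8.56, 8.67 and 8.69 with it. It was lower with doxycycline in experiments 1 and 2 and higher in experiment 3. The mean difference was -0.10 (95% interval -0.33 to 0.13, limma adjusted p = 0.67). It was -0.18 without experiment 3, -0.06 without experiment 1 or without experiment 2 and, with no block, -0.05 without the uninduced array of experiment 2. TXNRD1 and FTH1 were the 2 genes of the 10 with a mean difference below 0.

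FTH1 (ENSG00000167996_at) and FTL (ENSG00000087086_at) encode the heavy and the light chain of ferritin, which assemble into the shell that stores iron. The FTH1 log2 level was 7.57, 7.32 and 7.18 without doxycycline and 7.12, 7.21 and 7.12 with it. It was lower with doxycycline in all 3 experiments, with differences of -0.45, -0.11 and -0.06, the first of them by far the largest, and the groups overlapped. The mean difference was -0.21 (standard error 0.11, 95% interval -0.50 to 0.09, limma adjusted p = 0.51). Without experiment 1 it was -0.08. At least as large a difference in either direction was found at 23.1% of all probe sets.

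The FTL log2 level was 10.98, 10.93 and 10.85 without doxycycline and 10.80, 10.96 and 11.10 with it. FTL differed by -0.18, 0.03 and 0.25 in experiments 1, 2 and 3, with no common direction. The mean FTL difference was 0.03 (95% interval -0.26 to 0.33, limma adjusted p = 0.93). RefSeq lists 27 pseudogenes of FTH1 and 20 of FTL, and whether probes of these 2 genes also bind transcripts of such copies was not tested, so both values are uncertain.

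**Figure D2:**
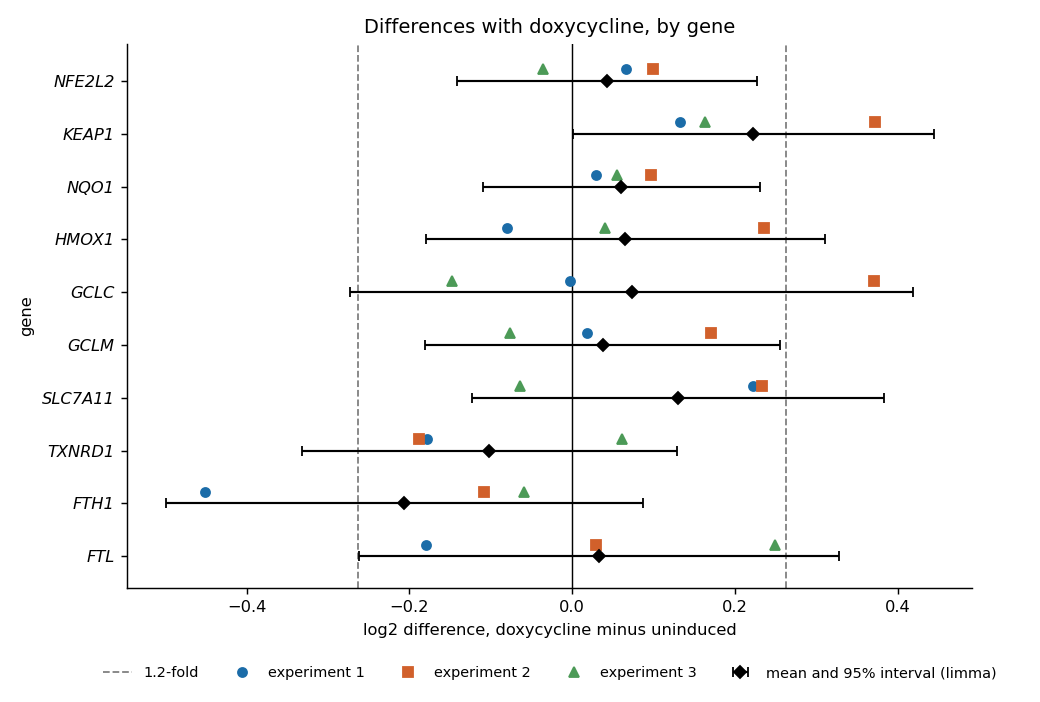
Log2 difference between doxycycline and uninduced cells (x axis) for each gene (y axis). Diamonds and bars are the means and 95% intervals from limma, coloured symbols the 3 experiments, and dashed lines a 1.2-fold change. The interval of KEAP1 lies just above 0 and those of the other 9 genes include 0.

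Genes whose products work as partners were compared within the same arrays. The log2 difference of FTH1 minus that of FTL was -0.27, -0.14 and -0.31 in experiments 1, 2 and 3, with a mean of -0.24 ± 0.09 (SD, n = 3). The log2 difference of KEAP1 exceeded that of NFE2L2 by 0.07, 0.27 and 0.20, a mean of 0.18 ± 0.10 (SD, n = 3). The log2 difference of GCLC minus that of GCLM had no common sign, with a mean of 0.04 ± 0.14 (SD, n = 3). The exact two-sided sign-flip permutation test gave p = 0.25 for ferritin and for KEAP1 with NFE2L2, the smallest p that 3 experiments allow, and p = 1 for the ligase subunits. After Benjamini-Hochberg adjustment over these 3 pairs the values were 0.38, 0.38 and 1. The pairs were chosen after the values had been seen.

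Across the 10 genes, the count past the study's selection was 0, against 5.83% of all probe sets, of which 2.9% were higher and 2.94% lower with doxycycline. No gene of the 10, and 0% of all probe sets, had an adjusted p under 0.05 in limma, while 1 of the 10 and 12.3% of all probe sets had an unadjusted p under 0.05. The adjusted p of the 10 lay between 0.41 and 0.93. The methods' t-test, paired and 2-tailed, placed 0 of the 10 past the study's selection, against 2.18% of all probe sets, and 0 of the 10 and 0% of all probe sets under an adjusted p of 0.05. The median absolute log2 difference was 0.07 for the 10 genes and 0.10 for all probe sets, and the median SD of the 3 differences was 0.15 and 0.14.

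**Figure D3:**
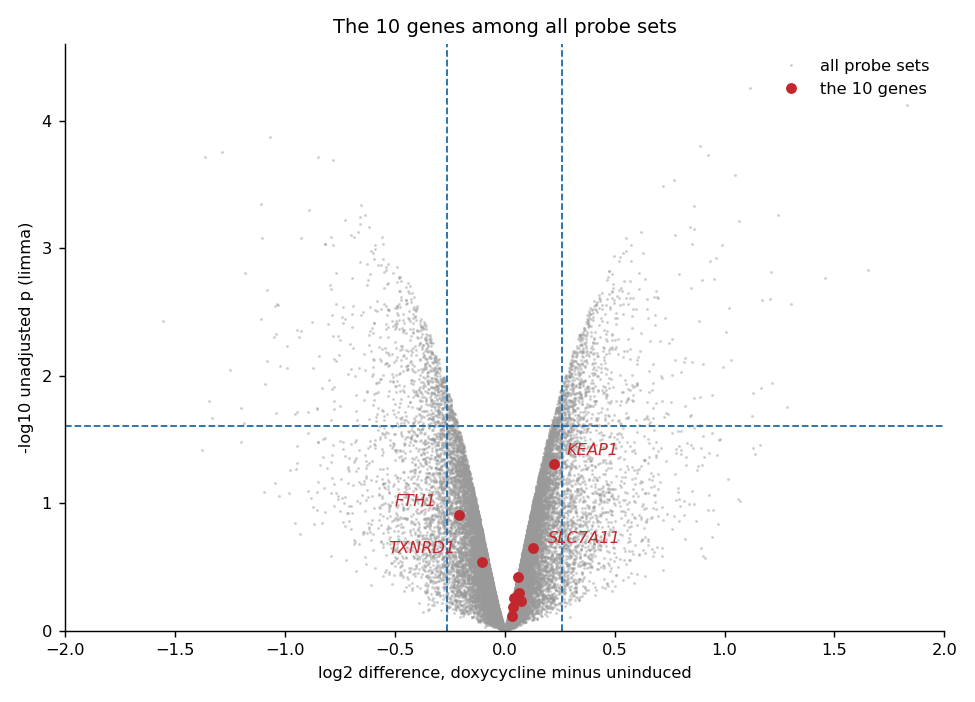
Log2 difference with doxycycline (x axis) against the -log10 of the unadjusted p from limma (y axis) for all 26445 probe sets (grey) and the 10 genes (red, the 4 with the smallest p labelled). Dashed lines mark the 2 limits of the study's selection, and no red point lies beyond either of them.

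By direction, 8 of the 10 genes had a mean difference above 0, as had 50.5% of all probe sets, and the median of the 10 was 0.05 against 0.0017 for all probe sets. The same direction in all 3 experiments was seen for 3 of the 10, KEAP1 and NQO1 higher and FTH1 lower, and for 36.5% of all probe sets, 18.9% higher and 17.6% lower. These shares are given as a description, because the genes share their arrays.

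The experiments differed. In experiment 2, 8 of the 10 genes were higher with doxycycline and their median log2 difference was 0.14. In experiments 1 and 3, 5 of the 10 were higher, with medians of 0.0075 and 0.0020. For 7 of the 10 genes the difference was highest in experiment 2, and for 7 its doxycycline array had the highest doxycycline level. The matching shares over all probe sets were not counted, so these counts cannot be read as particular to the 10 genes. Over all probe sets 49.1%, 51.0% and 51.2% were higher with doxycycline in experiments 1, 2 and 3. The arrays share a common distribution, and whether this keeps the shares near the middle was not tested. Such shares do not measure how alike the experiments were. Without experiment 2 the median of the 10 genes was -0.0025. Whether a difference between the cultures or arrays of experiment 2 moved with these genes was not tested.

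**Figure D4:**
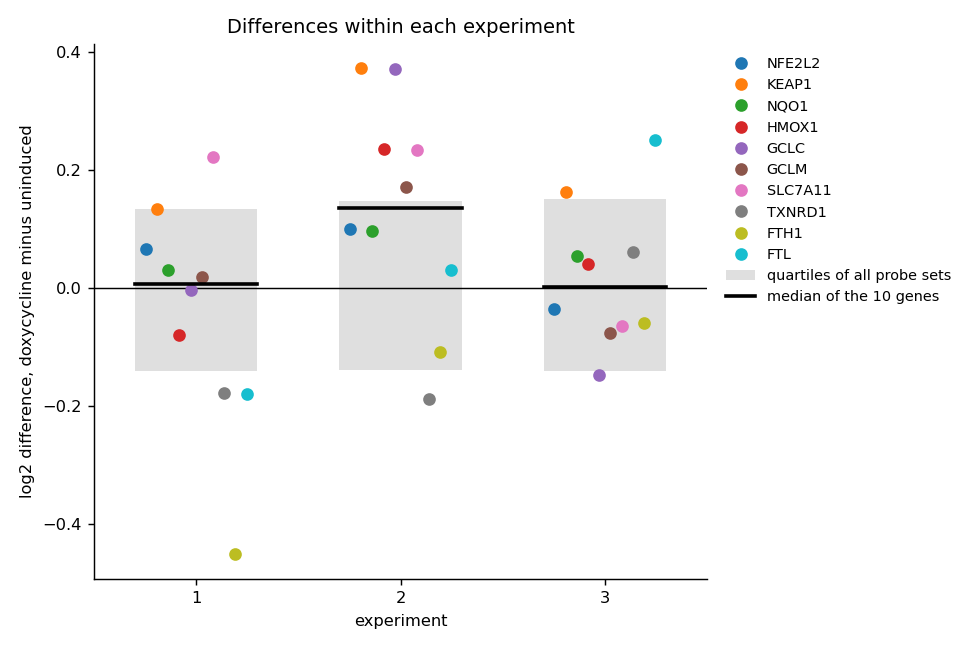
Log2 difference between doxycycline and uninduced cells (y axis) in each experiment (x axis), with 1 point per gene, black bars for the median of the 10 genes and grey boxes from the first to the third quartile of all probe sets. The median of the 10 is 0.14 in experiment 2 and close to 0 in experiments 1 and 3.

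The genes closest to each other in their differences were paired by Pearson's r over the 6 arrays after the mean of each experiment had been removed, which leaves 3 independent differences per gene. GCLC was most like GCLM (r = 0.99), KEAP1 most like NQO1 (r = 0.99) and NFE2L2 most like SLC7A11 (r = 0.98). FTL had no close match, with r = 0.51 to TXNRD1 at most. All genes share the same arrays, and with 3 differences such values describe these arrays alone.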

How the data were processed

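The authors deposited log2 expression levels of 6 GeneChip Human Exon 1.0 ST arrays for 26445 probe sets named by Ensembl gene identifiers. The submitters' processing notes name RMA, and the version and annotation are not given in the sources used here. No values were missing, and the levels were used as deposited. Tests were two-sided and were made for all probe sets with limma 3.58.1 (R 4.3.3), in which the experiment was a block because the study paired its samples, with Benjamini-Hochberg adjustment over the whole table. Replicate numbers come from the sample titles. Single values were tested with exact sign-flip permutation tests. The fit was also run on simulated data, with added differences larger than that of any of the 10 genes. That run therefore does not show how the fit performs at differences of the size reported here. The 10 genes, the alternatives and the promoter motif were chosen with earlier results of these data known. All 10 genes are named with their values. Wider lists of NRF2 targets, regulators and cell markers had been drawn up by symbol, but the gene table used here pairs no Ensembl identifiers with symbols, so they were not analysed here. The alternatives left out the block, arrays or experiments, dropped the dimmest 25% of probe sets, removed the level trend by lowess (span 0.3), and changed the prior, the test, the normalization or the limits.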

Additional observations from a re-analysis of the deposited data

How the results depend on the processing

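Of the 10 genes, 0 passed the study's limits in limma with the experiments as a block or in any of its 20 alternatives. Where an alternative leaves the differences nearly as they are and keeps or raises the 1.2-fold minimum, this 0 was fixed in advance. The largest difference, 0.22 for KEAP1, is under that minimum, which is 0.26 on the log2 scale. The count under an adjusted p of 0.05 was 0 in limma and in each of its 17 alternatives. In the 8 alternatives that kept all arrays the adjusted p of KEAP1 lay between 0.26 and 0.54. Of these, only the removal of the level trend could move a difference by more than a trace, and no gene changed direction in it. The others leave the differences as they are by construction, or nearly so for quantile normalization and centring of values that already share a distribution. Leaving out 1 experiment in turn, the HMOX1 difference ranged from -0.02 to 0.14, that of GCLC from -0.075 to 0.18, that of GCLM from -0.029 to 0.094 and that of FTL from -0.075 to 0.14. The lowest values of HMOX1, GCLC and GCLM were without experiment 2, and that of FTL without experiment 3. With no block and a single array left out, the sign also turned for HMOX1 (-0.0037) when uninduced array 2 was dropped, for GCLC (-0.035) and GCLM (-0.016) when doxycycline array 2 was dropped, and for FTL when either array 3 was dropped (-0.0017 for uninduced, -0.04 for doxycycline). KEAP1 stayed between 0.15 and 0.27, FTH1 between -0.30 and -0.08, and the median of the 10 genes between -0.0025 and 0.08. Over all probe sets, 1543 passed the study's limits, 577 with the methods' t-test, 238 with a 1.5-fold minimum, and 986 to 1344 without 1 experiment. With no block, 1050 passed with all arrays (no replicate block), while dropping uninduced array 1, 2 or 3 gave 993, 696 or 1361, and dropping doxycycline array 1, 2 or 3 gave 997, 1332 or 770. The cause was not tested. The deviations of same-numbered arrays from their group means correlated over probe sets with an r of 0.04, 0.05 and 0.13 in experiments 1, 2 and 3, so the pairing by experiment rests on the study's paired test and not on these values. The wider gene lists could not be run.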
